A study of Homo sapiens with 4 samples.

Results

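The genes described here are the ligands and receptors of axon guidance: semaphorins with their plexin and neuropilin receptors, ephrins with Eph receptors, slits with robos, and netrins with DCC, NEO1 and the UNC5 receptors. They were measured by RNA-seq in U2OS, an established human osteosarcoma line, in cells labelled as carrying a GREM1 knockdown (shGREM1, 2 libraries) and in cells labelled shControl (2 libraries). The labels name no other treatment, time, clone or vector, so nothing further about how either group was made is given. Members were chosen by symbol: protein-coding genes of the count table whose names fall in these families, 70 of 58735 genes, 35 of them ligands and 35 receptors. The rule uses symbols and no measured value, though the members were chosen with earlier results of these data known.

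Guidance cues were named for steering growing axons, and the same molecules act in bone, vessels and tumours. Secreted or membrane-bound semaphorins bind plexins, whose cytoplasmic part switches off R-Ras and Rap GTPases; most of the secreted class binds a neuropilin, which holds the ligand and pairs with a plexin. Ephrins are themselves anchored in the membrane, and they signal in both directions when they meet Eph receptor tyrosine kinases on a neighbouring cell. Slits repel through robo receptors, and netrins attract through DCC or repel through UNC5 receptors. In bone, SEMA3A, SEMA4D, ephrin-B2 and EPHB4 are known for signals between osteoblasts and osteoclasts.

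The libraries held between 15492826 and 16353015 counts. GREM1, the gene named as the target, drew 2 and 0 counts from the shControl libraries and 1 and 1 from shGREM1, with 95% Poisson limits reaching 7.22 counts, so the knockdown cannot be checked and differences between the groups cannot be tied to loss of GREM1. Marker genes of the labelled line were uneven: RUNX2 had 64.8 to 85.6 CPM (read counts scaled by library total and TMM factor) and SPARC 869 to 1365 CPM, while SP7 had at most 0.43 CPM and COL1A2 at most 1.22 CPM. Of 8 osteoblast markers COL1A1 and SPARC rose, and these 2 genes make up most of the summed level of 1563 and 1531 CPM in the controls and 2200 and 2149 CPM under shGREM1. ALPL lay lower, at 13.5 and 8.68 CPM in the controls and 3.90 and 7.34 CPM under shGREM1 (edgeR adjusted p = 0.0888). The 5 mesenchymal markers summed to 1877 to 2163 CPM; VIM (484 to 602 CPM), FN1 (1084 to 1496 CPM), THY1 and CDH2 were well expressed, and TWIST1 had at most 0.065 CPM. Of 6 leukocyte markers 0 reached a mean of 1 CPM. The 7 neuron markers summed to 58.1 to 67.9 CPM, with ELAVL3 at 0 counts in 3 libraries. RBFOX3 fell, with 22.9 and 21.3 CPM in the controls and 12.4 and 9.51 CPM under shGREM1. The other kept neuron markers did not pass and went both ways: SYN1 had a log2 fold change of -0.45, SNAP25 0.05 and SLC17A7 0.47. The 6 endothelial markers summed to 16.8 to 21.7 CPM, and the 5 epithelial markers to 101 to 155 CPM. EPCAM rose, and the other epithelial markers did not pass. CLDN4, the most abundant, had a log2 fold change of -0.19, and CDH1, KRT5 and KRT14 had 0.68, 0.67 and 1.37. Whether these shifts bear on the guidance genes was not tested. The sources used here do not state whether the libraries of a group are separate cultures, so the spread behind each p may be technical only. In bulk RNA, fewer cells that express a gene cannot be told apart from less RNA per cell.

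Guidance genes took between 0.452% and 0.506% of all counts, with 0.505% and 0.506% in shControl and 0.452% and 0.494% in shGREM1. Of the 70 members, 64 were kept by the count filter and 6 were not. Compared by counts per length (RPKM, CPM per kilobase of the gene length given in the table, averaged over the 4 libraries), the receptors EPHA2 (159.5 RPKM) and PLXNB2 (127 RPKM) stood highest, followed by the ligands SEMA6B (83.4 RPKM) and SEMA3C (40.8 RPKM). EPHA2 alone made up 71.0% of the summed Eph receptor level and PLXNB2 60.9% of the summed plexin level. The other families were spread more evenly or stood lower: the strongest slit, SLIT2, had 1.91 RPKM.

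**Figure D1:**
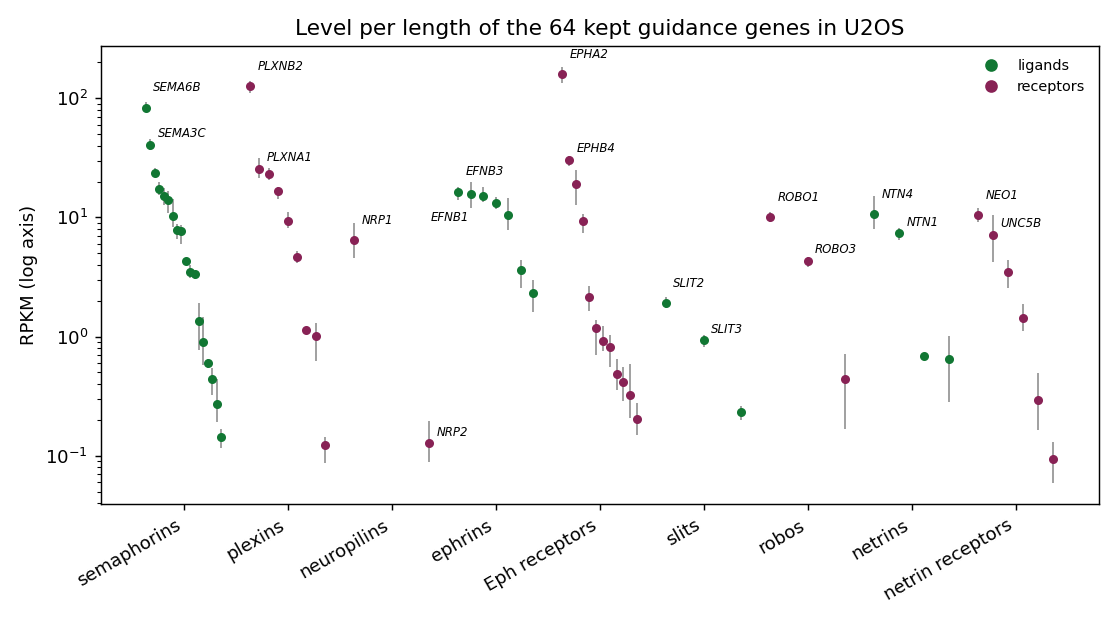
Level per length of each of the 64 kept guidance genes, in RPKM on a log axis, grouped by family with ligands in green and receptors in purple. Points are means over the 4 libraries, lines run from the lowest to the highest library, and the 2 highest members of each family are named; EPHA2 and PLXNB2 lie above 100 RPKM.

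Few guidance genes passed the test between the groups, and the few receptor genes that passed mostly fell. With an adjusted p under 0.05 as the threshold (quasi-likelihood test of edgeR, Benjamini-Hochberg over all genes tested), 3 members rose, 8 fell and 53 did not pass. The 3 that rose were the semaphorin gene SEMA3E, the netrin gene NTN4 and the netrin receptor gene UNC5C. The 8 that fell were SEMA4B, the ephrin gene EFNB1 and the receptor genes NRP1, PLXNA2, EPHA2, ROBO4, UNC5A and UNC5B. Among 32 kept ligands 2 rose and 2 fell, and among 32 kept receptors 1 rose and 6 fell. The kept receptors as a class were balanced, with 16 above and 16 below a log2 fold change of 0 and a median of 4e-04. Over all 18442 genes tested, 3.57% rose and 4.12% fell, against 4.69% and 12.5% of the 64 kept members. The share that rose is thus near this background and the share that fell above it. All members are protein-coding, though, and this background is not. In a fit of the 14206 protein-coding genes alone, 712 rose and 752 fell, among them 4 and 9 members. The members were also chosen with earlier results of these data known. The groups did not overlap, with shGREM1 higher, in 20.3% of kept members (27% of all genes) and, with shGREM1 lower, in 35.9% (26.6% of all genes). The median log2 fold change (log2FC, shGREM1 minus shControl) was -0.02 over kept members and 0.00 over all genes. A fit that leaves out 1 library has a group of 1 library, so its calls cannot show how stable the member counts or single calls are. Calls over all genes were fewer without either shControl library and more without either shGREM1 library. The median log2FC of kept members was 0.0088 without shControl-1 (all genes 0.0086) and -0.0672 without shControl-2 (all genes 0.0134). It was -0.0121 without shGREM1-1 (all genes -0.0071) and -0.0507 without shGREM1-2 (all genes -0.0072). With the replicate number as a block, 6 members rose and 10 fell. Calls over all 18442 genes grew there too, from 659 to 1101 rises and from 759 to 1273 falls.

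**Figure D2:**
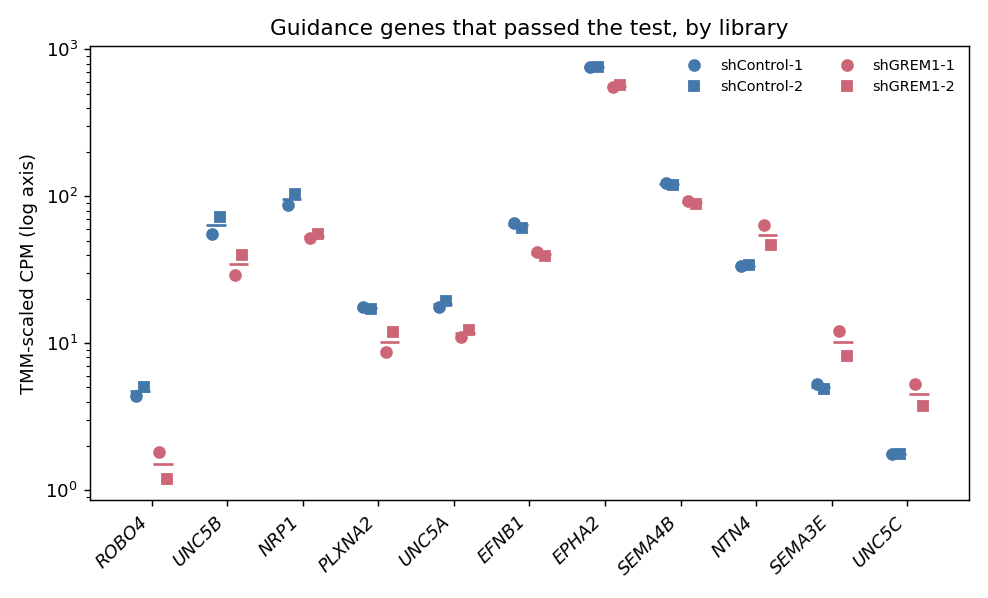
TMM-scaled CPM (log axis) of the 11 guidance genes that passed the test, with 1 point per library (blue shControl, red shGREM1; circles replicate 1, squares replicate 2) and a bar at each group mean. In each of the 11 genes both shGREM1 points lie on the same side of both shControl points, and the levels run from about 1.18 CPM (ROBO4 in shGREM1-2) to 764.5 CPM (EPHA2 in shControl-2).

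**Figure D3:**
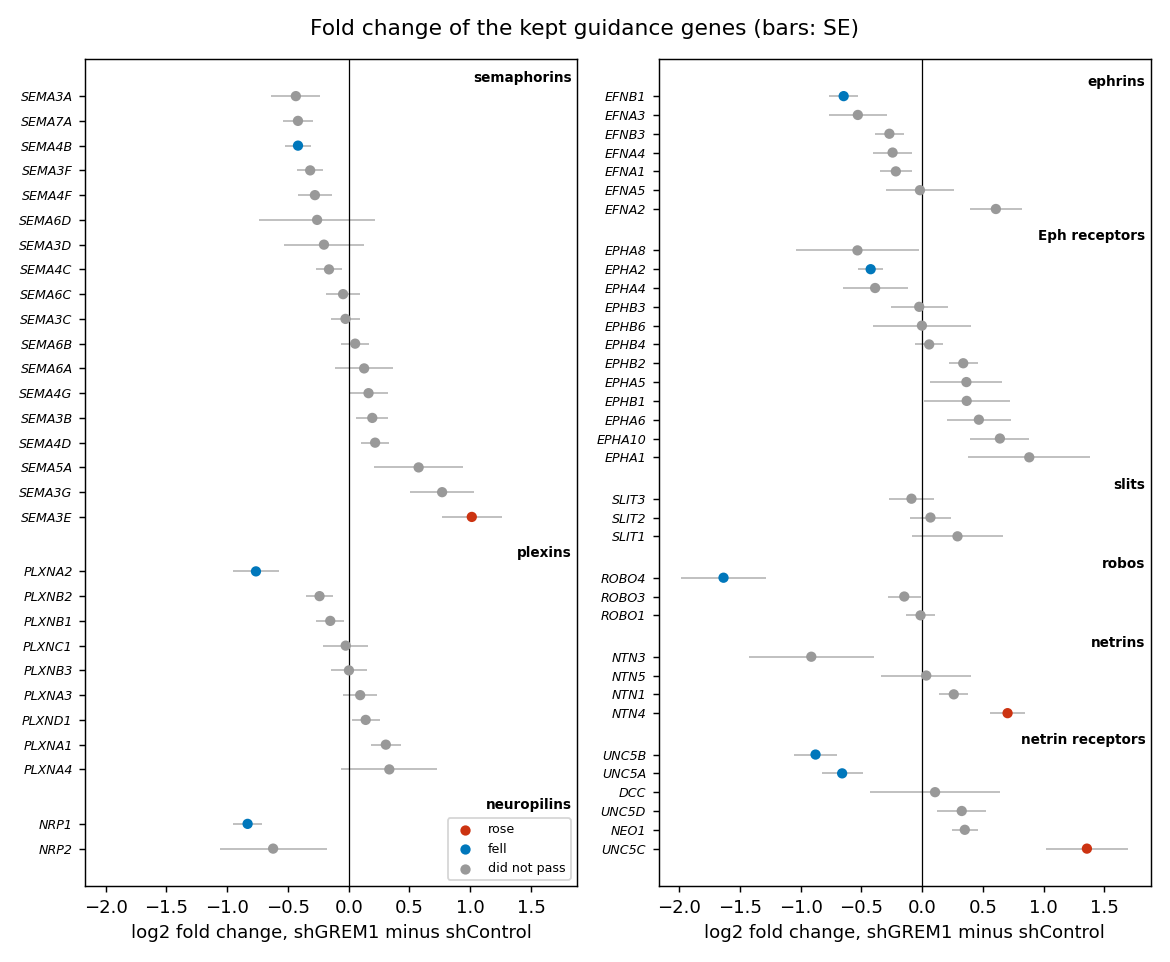
Log2FC (shGREM1 minus shControl) of the 64 kept guidance genes by family, with bars of 1 SE from edgeR. Red points rose, blue points fell and grey points did not pass; the values run from -1.63 (ROBO4) to 1.36 (UNC5C).

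To show what lies upstream of changed members, the bases before the start of 4 of them are given, chosen because their RefSeq start lay within 50 bases of the start of the deposited gene model. They come from RefSeq (GRCh38.p14), 5′ to 3′ on the gene's own strand, and stop before the earlier of both starts. Of the 70 members, 60 were in the RefSeq table, and NRP1 and UNC5B were among the other 10. Capitals mark the GC box (GGGCGG or its reverse complement CCGCCC, the Sp1-type motif) and the cAMP response element (TGACGTCA, a palindrome). The ephrin gene EFNB1 (chrX:68828771-68828996, plus strand) and the Eph receptor gene EPHA2 (chr1:16156088-16156319, minus strand) fell, and NTN4 (chr12:95791156-95791405, minus strand) and SEMA3E (chr7:83649140-83649389, minus strand) rose.
EFNB1: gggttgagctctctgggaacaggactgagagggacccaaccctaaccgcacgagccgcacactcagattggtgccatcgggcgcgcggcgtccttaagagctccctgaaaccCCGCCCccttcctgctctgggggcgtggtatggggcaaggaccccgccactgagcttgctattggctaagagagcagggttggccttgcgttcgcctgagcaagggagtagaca
EPHA2: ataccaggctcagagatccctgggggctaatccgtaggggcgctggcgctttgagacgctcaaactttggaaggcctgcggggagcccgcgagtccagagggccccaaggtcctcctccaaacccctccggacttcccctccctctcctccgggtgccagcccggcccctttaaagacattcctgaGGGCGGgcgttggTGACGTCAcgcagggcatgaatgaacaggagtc
NTN4: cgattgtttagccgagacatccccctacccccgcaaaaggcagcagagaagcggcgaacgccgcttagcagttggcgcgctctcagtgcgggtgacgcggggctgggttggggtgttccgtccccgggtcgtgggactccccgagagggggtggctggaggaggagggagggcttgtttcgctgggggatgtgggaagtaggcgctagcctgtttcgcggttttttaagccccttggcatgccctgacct
SEMA3E: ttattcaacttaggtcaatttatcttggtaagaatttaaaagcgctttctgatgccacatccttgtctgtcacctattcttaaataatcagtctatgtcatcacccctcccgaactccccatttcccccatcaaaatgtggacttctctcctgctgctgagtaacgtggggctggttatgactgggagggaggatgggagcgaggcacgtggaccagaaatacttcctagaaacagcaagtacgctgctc
Of 27305 promoters of the table, 1 per gene and 250 bases long, 42.3% held the GC box and 1.77% the cAMP response element, on either strand; the windows shown are 226 bases for EFNB1, 232 for EPHA2 and 250 for the other two. EFNB1 and EPHA2 each held 1 GC box, and EPHA2 also held 1 cAMP response element 7 bases further on. These letters were not in the windows of NTN4 and SEMA3E. Most members in the RefSeq table held a GC box within 250 bases, among them SEMA3F, SEMA7A and EPHB4, which did not pass. The AP-1 motif TGANTCA (6.6% of promoters) and the TATA motif TATAAA or TTTATA (11.1%) were in 0 of the 4 windows. The SEMA3E window had 46.4% G and C, and the other 3 had 62.8% to 64.4%. The motifs were picked with the results known, and a match is a description of the letters only.

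Among the 20 semaphorins, SEMA3E rose and SEMA4B fell, and the most abundant members did not pass. SEMA3E (ENSG00000170381, chromosome 7, 83363238 to 83649113, minus strand) encodes a secreted semaphorin that binds PLXND1 without needing a neuropilin. It read 5.25 and 4.86 CPM in the shControl libraries and 12.2 and 8.21 CPM under shGREM1. Both shGREM1 libraries were higher, on a base of 75 to 200 counts, and the log2FC was 1.01 ± 0.25 (SE; edgeR adjusted p = 0.021). The call did not hold without shControl-1, shControl-2 or shGREM1-1, where the log2FC was 1.06, 0.95 and 0.70. Its receptor gene PLXND1 read 228 and 199.5 CPM in the shControl libraries and 253 and 219 CPM under shGREM1, groups that overlap.

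SEMA4B (ENSG00000185033, chromosome 15, 90160604 to 90229679, plus strand), which encodes a membrane-bound semaphorin, read 123 and 120 CPM in the shControl libraries and 93.1 and 88.6 CPM under shGREM1. The fall was small but narrow, from 121 ± 2.23 to 90.9 ± 3.17 CPM (SD, n = 2 each), with a log2FC of -0.42 ± 0.11 (SE; edgeR adjusted p = 0.0251). It did not pass without shControl-1 (edgeR adjusted p = 0.132) or shControl-2 (0.0785). The most abundant semaphorin gene, SEMA6B, read 356 and 367 CPM in the shControl libraries and 335.5 and 414 CPM under shGREM1, and SEMA3C 231 and 285 CPM against 242 and 264 CPM. Neither separated the groups.

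Several other semaphorin genes lay apart between the groups without passing. SEMA7A, which encodes a GPI-anchored semaphorin that binds PLXNC1 and integrins, read 63.2 and 58.3 CPM in the shControl libraries and 49.5 and 41.5 CPM under shGREM1 (log2FC -0.42 ± 0.12, edgeR adjusted p = 0.0528). It sat at the threshold: the adjusted p was 0.0156 with no count filter, 0.048 with a mean CPM filter of 5, 0.0471 among protein-coding genes only and 0.00455 without shGREM1-1. SEMA3F, a ligand of neuropilin 2, stood at 91.5 and 95.4 CPM in the controls against 74.1 and 76.0 CPM (edgeR adjusted p = 0.0869). SEMA3A, a ligand of neuropilin 1 that protects bone in mice, stood at 86.9 and 135 CPM in the controls against 78.1 and 86.0 CPM (edgeR adjusted p = 0.262), with the spread in shControl. Its log2FC was -0.72 without shControl-1 (edgeR adjusted p = 0.00236) and -0.09 without shControl-2 (0.828); without shGREM1-2 its adjusted p was 0.00628 and without a count filter 0.00443. SEMA3G stood at 3.89 and 6.09 CPM in the controls against 7.503 and 9.51 CPM, a log2FC of 0.77 ± 0.27 (edgeR adjusted p = 0.094); it passed without shControl-2 (0.0466) and without shGREM1-1 (0.0198). SEMA3A, SEMA3G and SEMA7A also passed with the replicate block, at adjusted p of 0.0111, 0.028 and 0.0128. The remaining kept semaphorin genes (SEMA3B, SEMA3D, SEMA4C, SEMA4D, SEMA4F, SEMA4G, SEMA5A, SEMA6A, SEMA6C and SEMA6D) did not pass, and the 16 members that did not pass had log2FCs between -0.43 and 0.77. SEMA4F passed without shGREM1-2 (log2FC -0.50, edgeR adjusted p = 0.0159). SEMA4G overlaps MRPL43 and SEMA6D overlaps AC044787.1, each more abundant than the semaphorin gene, and the strand setting of the counting is not given, so these values are uncertain.

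The coreceptor NRP1 showed the lowest adjusted p of all guidance genes. Neuropilin 1 binds secreted semaphorins such as SEMA3A and also VEGF-A. NRP1 (ENSG00000099250, chromosome 10, 33177492 to 33336262, minus strand) read 86.9 and 104 CPM in the shControl libraries and 52.2 and 55.2 CPM under shGREM1. Both shGREM1 libraries lay well under both controls: the mean went from 95.5 ± 12.3 to 53.7 ± 2.16 CPM (SD, n = 2 each), 0.562 of the shControl level (log2FC -0.83 ± 0.12, edgeR adjusted p = 0.00075). NRP1 passed in all 15 alternatives run, with log2FCs from -0.96 to -0.70. NRP2, the only other neuropilin, was near the limit of measurement, with 42 and 24 counts in the control libraries against 20 and 25 (log2FC -0.62 ± 0.44, edgeR adjusted p = 0.438).

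Of the 9 plexin genes, which encode the signalling receptors, PLXNA2 fell and 8 did not pass. PLXNA2 (ENSG00000076356, chromosome 1, 208022242 to 208244320, minus strand), which encodes a receptor for class 6 and, with neuropilins, class 3 semaphorins, read 17.8 and 17.1 CPM in the shControl libraries and 8.66 and 11.9 CPM under shGREM1. The controls agree closely and both shGREM1 libraries lie under them, with a log2FC of -0.76 ± 0.19 (SE; edgeR adjusted p = 0.0231). PLXNA2 did not pass without shControl-1, shControl-2 or shGREM1-1, where its log2FC was -0.74, -0.79 and -0.55. PLXNB2, the most abundant plexin gene and a semaphorin 4 receptor, stood at 1016 and 982 CPM in the controls against 804 and 889 CPM (log2FC -0.24 ± 0.11, edgeR adjusted p = 0.202). PLXNA1 stood at 268 and 233.5 CPM in the controls against 276 and 343.5 CPM (log2FC 0.31 ± 0.12, edgeR adjusted p = 0.149) and passed only when shGREM1-1 was left out (0.00338). The other plexin genes that did not pass (PLXNA3, PLXNA4, PLXNB1, PLXNB3, PLXNC1 and PLXND1) lay with these between -0.24 and 0.33 on the log2FC scale. PLXNC1 overlaps CEP83, which has 109% of its CPM.

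Most ephrin genes lay lower under shGREM1, and 1 of them passed. Of 7 kept ephrins, 6 had a log2FC below 0, among them EFNA5 at only -0.02 ± 0.28 (SE). The family median was -0.24 against 0.00 over all genes. EFNB1 (ENSG00000090776, chromosome X, 68828997 to 68842147, plus strand) encodes ephrin-B1, a transmembrane ligand of EPHB receptors whose loss disturbs skull and face formation. It read 66 and 61.2 CPM in the shControl libraries and 41.7 and 39.6 CPM under shGREM1. The groups were well apart, with a log2FC of -0.65 ± 0.12 (SE; edgeR adjusted p = 0.00346), and the gene passed in all 15 alternatives run. EFNB3, the family's most abundant member per length at 16.4 RPKM, stood at 58.2 and 57.3 CPM in the controls against 44.8 and 51.1 CPM (log2FC -0.27 ± 0.12, edgeR adjusted p = 0.183). EFNA2 lay higher in both shGREM1 libraries, at 8.36 and 7.39 CPM against 10.3 and 13.7 CPM (log2FC 0.61 ± 0.21, edgeR adjusted p = 0.0978), and passed when shGREM1-1 was left out (0.0157). EFNA1, EFNA3 and EFNA4 had both shGREM1 libraries under both controls and did not pass (log2FC of -0.22, -0.53 and -0.24), and EFNA5 overlapped between groups. Both shGREM1 libraries also lay under both controls in 26.6% of all genes.

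The summed Eph receptor level was 250 and 242 RPKM in the controls and 194 and 213 RPKM under shGREM1. Most of this sum is EPHA2, at 182 and 184 RPKM in the controls and 134 and 138 RPKM under shGREM1. Of the 12 kept Eph receptor genes, 7 had a log2FC above 0 and 5 below 0, with a median of 0.20. Of these receptor genes EPHA2 fell, and it is also the most abundant guidance gene per length in these cells. EPHA2, a tyrosine kinase of ephrin-A ligands that many tumours carry in excess, read 755 and 764.5 CPM in the shControl libraries and 559 and 574.5 CPM under shGREM1 (ENSG00000142627, chromosome 1, 16124337 to 16156087, minus strand). The libraries of each group nearly coincided, at 760 ± 6.54 and 567 ± 11.2 CPM (SD, n = 2 each), 0.746 of the shControl level, and the log2FC was -0.42 ± 0.11 (SE; edgeR adjusted p = 0.0231). It did not pass without shControl-1 (edgeR adjusted p = 0.165) or shControl-2 (0.162), where the log2FC was -0.44 and -0.42. EPHB4, a receptor for ephrin-B2, stood at 211 and 174 CPM in the controls against 197 and 205 CPM, which overlap, and it overlaps SLC12A9. EPHB2 stood at 115 and 92.4 CPM in the controls against 133 and 129 CPM (log2FC 0.34 ± 0.12, edgeR adjusted p = 0.0974; 0.0341 with the replicate block). The low-level EPHA10 stood at 4.53 and 5.90 CPM in the controls against 7.87 and 8.39 CPM (log2FC 0.64 ± 0.24, edgeR adjusted p = 0.125).

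The libraries of 1 group disagreed for some ephrin and Eph receptor genes. EPHB6, which encodes a receptor without kinase activity, had 107 and 94.3 CPM in shControl but 68.1 CPM in shGREM1-1 and 133 CPM in shGREM1-2, a 1.95-fold gap. Its log2FC was -0.56 without shGREM1-2 (edgeR adjusted p = 0.00109) and 0.40 without shGREM1-1 (0.0234), so the direction was set by the library, and with both it did not pass (0.999). EPHA4 (5.31 and 10.01 CPM) and EFNA5 (9.21 and 17.0 CPM) showed the same order between shGREM1-1 and shGREM1-2; EPHA4 passed as lower without shGREM1-2 (edgeR adjusted p = 0.0171). Of 49 kept members with a mean of at least 5 CPM, 4 differed at least 1.5-fold between the shGREM1 libraries (these 3 and EPHB3) and 2 between the shControl libraries (SEMA3A and SEMA3G). EPHA1, EPHA5, EPHA6, EPHA8, EPHB1 and EPHB3 did not pass either, and the 11 Eph receptor genes that did not pass ran from -0.53 to 0.88. EPHA1 overlaps the far more abundant ZYX, and EPHA5 the more abundant AC115223.1, so both are uncertain.

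The 3 slit genes did not pass (0 of them at an unadjusted p under 0.05, nor with DESeq2 or limma-voom), and of the robo receptor genes ROBO4 fell. SLIT2, a secreted repellent, read 17.0 and 19.2 CPM in the shControl libraries and 20.9 and 17.0 CPM under shGREM1, and SLIT3 stood at 12.95 and 14.6 CPM in the controls against 14.3 and 11.6 CPM. SLIT1 was lower still, at 28 to 39 counts. ROBO1, the main robo gene here at 10.1 RPKM, stood at 99.8 and 121 CPM in the controls against 111 and 107 CPM, and ROBO3 31.5 and 32.5 CPM against 27.0 and 30.8 CPM (log2FC -0.15 ± 0.13, edgeR adjusted p = 0.562). ROBO4 (ENSG00000154133, chromosome 11, 124883691 to 124898500, minus strand), known from vessel endothelium, drew 67 and 78 counts from the shControl libraries and 30 and 19 from shGREM1. That is 4.34 and 5.05 CPM against 1.83 and 1.18 CPM, the largest fold change of the 64 kept members, with a log2 value of -1.63 ± 0.35 (SE; edgeR adjusted p = 0.0105). ROBO4 passed in the 14 alternatives in which it was tested; the mean CPM filter of 5 removed it. Beside it, the endothelial markers PECAM1, CDH5, TIE1 and VWF had log2FCs of -0.18, -0.76, -0.88 and -0.33, TEK had 0.02 and CLDN5 had 0.61. These 6 markers did not pass, the lowest unadjusted edgeR p being 0.103, and their part in the ROBO4 value was not tested.

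Of the netrin genes NTN4 rose, and of their receptor genes 1 rose and 2 fell. NTN4 (ENSG00000074527, chromosome 12, 95657807 to 95791152, minus strand) encodes netrin 4, a basement membrane protein that binds laminins. It read 33.4 and 34.1 CPM in the shControl libraries and 63.4 and 46.5 CPM under shGREM1. Both shGREM1 libraries were higher, but by unequal amounts: the mean rose from 33.8 ± 0.462 to 54.9 ± 11.9 CPM (SD, n = 2 each), or 1.63 times the control level (log2FC 0.70 ± 0.14, edgeR adjusted p = 0.00894). NTN4 passed in all 15 alternatives run, from 0.46 without shGREM1-1 to 0.91 without shGREM1-2. NTN1, the classical DCC and UNC5 ligand, stood at 44.8 and 40.9 CPM in the controls against 50.9 and 51.7 CPM (log2FC 0.26 ± 0.12, edgeR adjusted p = 0.195). NTN3 had 9 to 31 counts (log2FC -0.91 ± 0.52, edgeR adjusted p = 0.314) and NTN5 31 to 35.

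Among the 4 UNC5 receptor genes, UNC5A and UNC5B fell while UNC5C rose. These receptors carry a death domain and can drive apoptosis when netrin is absent, and UNC5B is a known target of p53. UNC5B (ENSG00000107731, chromosome 10, 71212570 to 71302864, plus strand), the most abundant of them at 7.17 RPKM, read 55.2 and 71.8 CPM in the shControl libraries and 29.04 and 40.1 CPM under shGREM1. The groups did not overlap, with a mean of 0.545 of the shControl level (log2FC -0.88 ± 0.17, edgeR adjusted p = 0.0145), and the call held in all 15 alternatives run (log2FC from -1.13 to -0.66). UNC5B-AS1, which overlaps it on the other strand, has 12.6% of its CPM. UNC5A (ENSG00000113763, chromosome 5, 176810477 to 176880898, plus strand) stood at 17.6 and 19.3 CPM in the controls against 11.1 and 12.3 CPM (log2FC -0.66 ± 0.17, edgeR adjusted p = 0.0277). It did not pass with DESeq2 (adjusted p = 0.0527). Nor did it pass without shControl-1 or shControl-2, where calls over all genes were also fewer.

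UNC5C (ENSG00000182168, chromosome 4, 95162504 to 95549206, minus strand) stood at a much lower level, at 0.292 RPKM. It drew 27 and 27 counts from the shControl libraries and 86 and 60 from shGREM1, or 1.75 CPM in each control against 5.25 and 3.73 CPM. Both shGREM1 libraries were higher, with a log2FC of 1.36 ± 0.34 (SE; edgeR adjusted p = 0.0236). It did not pass with DESeq2 (adjusted p = 0.0551) or without shControl-1, shControl-2 or shGREM1-1. UNC5D, which overlaps LSM12P1 at 76.1% of its CPM, did not pass, at 11.9 and 15.7 CPM against 14.2 and 20.4 CPM, except without shGREM1-1 (0.0467). Of the attractive receptors, DCC was nearly silent at 12 to 28 counts. NEO1, which encodes neogenin, a receptor for netrins and for repulsive guidance molecules that also bind BMPs, read 73.6 and 75.4 CPM in the shControl libraries and 93.3 and 96.8 CPM under shGREM1. Its groups were apart and each was tight (log2FC 0.35 ± 0.11, edgeR adjusted p = 0.0584), and NEO1 passed in 6 of 15 alternatives: upper-quartile scaling (0.0372), total count scaling (0.0458), the mean CPM filter of 5 (0.0383), protein-coding genes only (0.0359), the replicate block (0.0352) and without shGREM1-1 (0.0448).

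**Figure D4:**
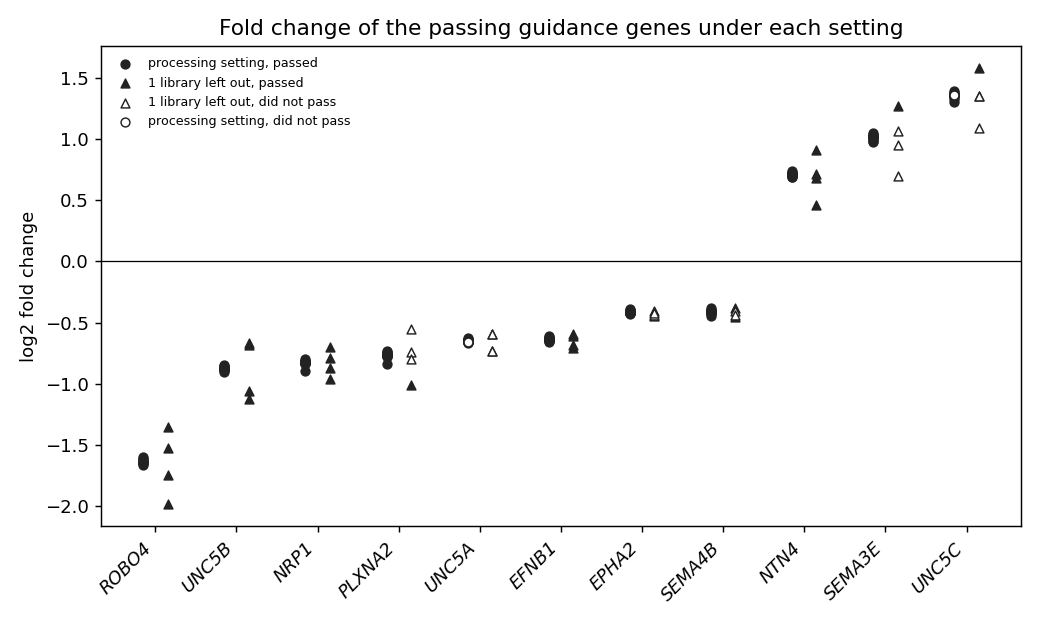
Log2FC (shGREM1 minus shControl) of the 11 passing guidance genes as reported and under each alternative; circles are processing settings, triangles are fits without 1 library, and open symbols did not pass. NRP1, EFNB1, NTN4, UNC5B and ROBO4 passed wherever they were tested, and every value of the 11 genes kept its sign.

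The 6 members not kept were SEMA4A (2 to 4 counts), SEMA5B (0 to 1), EPHA3 (0 in each library), EPHA7 (0, 0, 0 and 2), EFNB2 and ROBO2. EFNB2 had 2 and 1 counts in shControl, 1 in shGREM1-1 and 20 in shGREM1-2. ROBO2 had 0 and 0 counts in shControl, 1 in shGREM1-1 and 14 in shGREM1-2. For both, the reads came almost wholly from shGREM1-2, so neither describes the group and no fold change is given.

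Of 56 listed guidance effectors, the cytoskeletal and signalling genes downstream of the receptors, 54 were kept, 4 rose, 0 fell and 50 did not pass. The rises are 7.41% of the kept effectors, against 3.57% of all genes, and 4.12% of all genes fell. The median log2FC was 0.08, against 0.00 over all genes. This list too is wholly protein-coding, unlike the background, and was chosen with earlier results of these data known. Its shares are a description only. In the fit of the 14206 protein-coding genes alone, 712 genes rose and 752 fell, among them 4 and 0 effectors. The rises were ABLIM1, an actin-binding protein whose worm relative acts in netrin guidance, RAC1, a GTPase that drives lamellipodia, LIMK1, the kinase that inactivates cofilin, and FARP1, a GEF linked to plexin A signalling. ABLIM1 read 107 and 113 CPM in the shControl libraries and 202 and 216 CPM under shGREM1 (log2FC 0.93 ± 0.11, edgeR adjusted p = 0.000106). LIMK1 stood at 96.0 and 105 CPM in the controls against 156 and 158 CPM (log2FC 0.64 ± 0.11, edgeR adjusted p = 0.00199). RAC1 lay at 373 and 352 CPM against 554 and 525 CPM (log2FC 0.57 ± 0.11, edgeR adjusted p = 0.0042). Those 3 genes had non-overlapping, tight groups. FARP1 stood at 53.8 and 55.0 CPM in the controls against 71.4 and 92.7 CPM (log2FC 0.59 ± 0.13, edgeR adjusted p = 0.0124), and it overlaps STK24, which has 77% of its CPM. FARP1 did not pass without shControl-1, nor RAC1 without shControl-2, fits in which calls over all genes were also fewer. Beside the 0 falls, 4 effectors were lower at an unadjusted p under 0.05, and DESeq2 and limma-voom also called 0. In 3 alternatives 2 effectors fell: no count filter, the replicate block and without shGREM1-2.

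Of 29 other guidance cues and co-receptors, 25 were kept, 2 rose and 3 fell. That is 8% and 12% of the kept genes, against 3.57% and 4.12% of all genes, and the median log2FC was 0.21 against 0.00 over all genes. The shares rest on few genes of a list chosen with earlier results of these data known, so they are a description only. The list is wholly protein-coding, and the background is not. In the fit of the 14206 protein-coding genes alone, 712 genes rose and 752 fell, among them 4 and 3 of this list. The adhesion molecules L1CAM, a neuropilin partner in the response to SEMA3A, and NCAM1 were the rises. L1CAM read 255 and 214 CPM in the shControl libraries and 492 and 475 CPM under shGREM1, a log2FC of 1.04 ± 0.11 (edgeR adjusted p = 8e-05). NCAM1 stood at 57.8 and 57.6 CPM in the controls against 101 and 132 CPM (log2FC 1.02 ± 0.13, edgeR adjusted p = 0.000302). Both passed in all 4 fits without 1 library. The falls were MET, a receptor tyrosine kinase that associates with plexin B receptors, the secreted repellent DRAXIN, which binds DCC and netrins, and RTN4, which encodes the growth inhibitor Nogo. MET stood at 221 and 257 CPM in the controls against 150 and 149 CPM (log2FC -0.68 ± 0.11, edgeR adjusted p = 0.00182). DRAXIN stood at 33.0 and 36.9 CPM in the controls against 24.3 and 24 CPM (log2FC -0.53 ± 0.13, edgeR adjusted p = 0.0246). For RTN4 the values were 533 and 556.5 CPM against 438 and 400.1 CPM (log2FC -0.38 ± 0.11, edgeR adjusted p = 0.0432). In each of these 3 genes both shGREM1 libraries lay under both controls. DRAXIN did not pass without shControl-1 or shControl-2, where calls over all genes were also fewer. RTN4 did not pass without shControl-1, shControl-2 or shGREM1-2. It also did not pass with upper-quartile scaling (edgeR adjusted p = 0.0618), total count scaling (0.0526) or no robust estimation (0.0562). Without either shControl library 1 gene of this list fell, and 4 rose in 7 alternatives.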

How the data were processed

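SMARTER mRNA-Seq libraries were made from 1.3 ug of RNeasy mini plus RNA per sample, per the labels' protocols. The authors deposited a table of raw read counts. The submitters' processing notes list HISAT2 2.0.5, StringTie 1.3.3b and DESeq2, and the mouse build mm10. Counting program and strand use: not given in the sources used here. The table is human: all 70 members matched GENCODE 29 (GRCh38) in identifier, position, strand and symbol. Gene lengths are another deposited value, in bases. The columns were matched to samples by abbreviation only: NC1 and NC2 to shControl-1 and -2, SHG11 and SHG12 to shGREM1-1 and -2.

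After filterByExpr with a count of at least 10 and a total of at least 15, genes were fitted together in R 4.3.3 with edgeR 4.0.16 (TMM, robust quasi-likelihood, group alone), with p adjusted over all 18442 kept genes. Library totals ran from 15492826 to 16353015, and the biological coefficient of variation was 11.4%. SE came from the F statistic. The fit was tested on simulated counts. Alternatives were other scalings, filters, DESeq2 1.42.0, limma-voom (limma 3.58.1), no robust estimation, protein-coding genes only, a gene length correction (spline, 4 degrees of freedom), a replicate block and leaving out each library; in the last, a group left with 1 library borrows its spread from the other. Figures used matplotlib 3.10.9.

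The members and gene lists were chosen with earlier results of these data known. Named genes were members that passed, the 2 highest per length in each family, and those not passing with groups apart, an absolute log2FC of at least 0.58 and a mean of at least 1 CPM; from the 2 other lists, those that passed. SEMA3A, SEMA3F, SEMA7A, EPHB2, EPHB6, EPHA4, EFNA5, SEMA4F, UNC5D and PLXND1, and the members and markers given with counts, were added after their values were seen.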

Additional observations from a re-analysis of the deposited data

How the results depend on the processing

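Under the 11 processing alternatives the 11 called members kept their direction wherever tested (ROBO4 and UNC5C fell below the mean CPM filter of 5). The count of members that rose was 6 with the replicate block (3 as reported) and between 2 and 4 in the other 10; the count that fell was 7 to 10. Leaving out 1 library gave 1 to 8 rises and 4 to 12 falls. Effector genes that fell numbered 2 with no count filter and 2 with the replicate block, against 0, and 0 to 2 with 1 library left out. Other cues and co-receptors that rose numbered 4, against 2, with no count filter, upper-quartile scaling, the mean CPM filter, protein-coding genes only and the replicate block, and 2 to 4 with 1 library left out, where 1 to 4 fell. The cause of these shifts was not tested. With 1 library left out, calls over all genes were also fewer without either shControl library and more without either shGREM1 library. Those fits leave a group of 1 library, so their ranges cannot show how stable the member and list counts are. Deviations of same-numbered libraries had a correlation of -0.01 across genes. A single difference per group cannot show whether same-numbered libraries were prepared together, and the labels do not say. The block is no evidence of pairing.

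Some members that did not pass changed sign, most of them near 0 as reported. EPHA4 (-0.39 as reported) reached 2e-04 without shGREM1-1. SEMA5A (0.58 as reported) changed sign in 1 alternative, at -0.02. SEMA3D (-0.20 as reported) changed sign in 2 alternatives and reached 0.07. With upper-quartile scaling the log2FC was 0.0066 for SEMA3C, 0.0147 for EFNA5, 0.0305 for EPHB6 and 0.0201 for ROBO1. With total count scaling it was 0.0047 for EFNA5, 0.0207 for EPHB6 and 0.0071 for ROBO1. With the mean CPM filter it was 0.0122 for EPHB6 and 0.0013 for ROBO1, among protein-coding genes 0.0151 and 0.0041, and with the length correction 0.0028 for EPHB6. Without 1 library SEMA3C ran from -0.1758 to 0.1273, SEMA6B from -0.1058 to 0.1971, EFNA5 from -0.5265 to 0.3591, EPHA4 from -0.9134 to 2e-04, EPHB4 from -0.0808 to 0.1987, EPHB6 from -0.5608 to 0.4010, SLIT2 from -0.0906 to 0.2120, SLIT3 from -0.2512 to 0.0593 and ROBO1 from -0.1501 to 0.1253. With 2 libraries a group, members under about 5 CPM were measured on few counts, and differences there may be undetected.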
